A study of Mus musculus with 17 samples.

Results

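Fibronectin (Fn1), type III collagen (Col3a1), fibroblast activation protein (Fap), insulin-like growth factor binding protein 5 (Igfbp5), the transcription factor Zeb1 and the heparan sulfate proteoglycan glypican 4 (Gpc4) were read in mouse colon exposed to the carcinogen azoxymethane. These 6 genes were taken by symbol from the 988 genes of a targeted immuno-oncology panel, and all 6 were measured in all 17 libraries. They were chosen from measured values of the same counts, which included the small p-values of Gpc4 and Zeb1 between the genotypes in tumors and the stage difference of Igfbp5. Their values in the tumor genotype comparison, in the stage comparisons and in the genotype-by-stage contrast are therefore a description and carry no test here.

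The libraries came from 2 genotypes. Kit-B6 is the C57BL/6 control with normal Kit, and Kit-W/sh (W-SASH) carries an inversion upstream of Kit that leaves adults short of mast cells. Colon tumors were taken at postnatal week 32, after 6 intraperitoneal injections of azoxymethane (6 Kit-B6 and 6 Kit-W/sh samples). Preneoplastic colon was taken at postnatal week 14, after 3 injections (3 Kit-B6 and 2 Kit-W/sh samples). Every group had received azoxymethane, and untreated colon was not analysed here. Stage cannot be told apart from age, number of injections, tissue or a possible difference in sequencing run. The inversion is carried by all cells of Kit-W/sh mice, so a difference between the genotypes need not come from mast cells alone. In bulk tissue, fewer cells of a type and less RNA per cell cannot be told apart.

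Fibronectin and type III collagen are structural proteins of the interstitial matrix, laid down largely by fibroblasts. Fap is a serine protease of the surface of activated fibroblasts and cuts collagen fragments. Igfbp5 is secreted, binds insulin-like growth factors and attaches to matrix. Zeb1 is a zinc finger repressor that binds E-boxes, short DNA elements, and silences epithelial genes such as E-cadherin during epithelial-mesenchymal transition. Gpc4 is anchored to the outer cell membrane and presents growth factors and Wnt proteins to their receptors.

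The sequence upstream of the start site is shown for Col3a1, Igfbp5 and Gpc4, the 3 of the 6 symbols that matched RefSeq promoters on build GRCm38.p6. Col3a1 and Igfbp5 were higher in tumors of both genotypes, and Gpc4 was not. Each run holds the 250 bases before the start site in the direction of transcription, and capitals mark every E-box (CANNTG).
Col3a1: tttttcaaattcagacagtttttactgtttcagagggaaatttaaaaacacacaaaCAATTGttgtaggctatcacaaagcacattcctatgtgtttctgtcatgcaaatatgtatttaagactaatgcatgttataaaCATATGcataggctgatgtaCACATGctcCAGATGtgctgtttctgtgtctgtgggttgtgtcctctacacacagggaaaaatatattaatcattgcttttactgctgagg
Igfbp5: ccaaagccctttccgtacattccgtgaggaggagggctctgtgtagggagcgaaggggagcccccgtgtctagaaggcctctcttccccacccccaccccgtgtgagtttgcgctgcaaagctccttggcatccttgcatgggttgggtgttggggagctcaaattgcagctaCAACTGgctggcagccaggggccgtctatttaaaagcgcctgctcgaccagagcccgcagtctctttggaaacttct
Gpc4: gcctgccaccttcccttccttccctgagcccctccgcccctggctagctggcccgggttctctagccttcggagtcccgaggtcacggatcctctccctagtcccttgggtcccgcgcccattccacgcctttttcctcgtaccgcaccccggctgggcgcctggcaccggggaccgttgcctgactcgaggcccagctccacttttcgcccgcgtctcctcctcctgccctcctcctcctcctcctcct
The Col3a1 run is chr1:45311288-45311537 on the plus strand, the Igfbp5 run is chr1:72874866-72875115 on the minus strand, and the Gpc4 run is chrX:52164924-52165173 on the minus strand.

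The 3 upstream runs differed in base composition. GC content was 35.2% in Col3a1, 58.8% in Igfbp5 and 68.4% in Gpc4, against a median of 52.4% over 32851 upstream runs of the same length. CpG dinucleotides numbered 0 in Col3a1, 10 in Igfbp5 and 18 in Gpc4, against a median of 6. E-boxes numbered 4 in Col3a1, 1 in Igfbp5 and 0 in Gpc4, and 66.22% of all runs held at least 1. The E-box form CACCTG, which ZEB factors bind, occurred in 17.22% of all runs on either strand and in 0 of these 3. A TATAAA match lay 117 to 112 bases before the Col3a1 start (12.37% of all runs held one). CAGAC, the core bound by SMAD proteins, had 2 matches in Col3a1 and 0 in the other two runs (42.19% of all runs). GGGCGG, the GC box, had 1 match in Gpc4 and 0 in the other two (32.74% of all runs). All motifs were searched on both strands, and a match describes letters in a window, not a bound site.

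Library totals ran from 616009 to 703549 counts in Kit-B6 preneoplastic colon, from 621141 to 815973 in Kit-W/sh preneoplastic colon, from 616554 to 1399902 in Kit-B6 tumors and from 1049408 to 1262171 in Kit-W/sh tumors. Levels are CPM, counts scaled to library size after the trimmed mean of M values method (TMM), and 3 counts corresponded to between 2.138 and 5.5 CPM. The lowest count behind any value of the 6 genes was 8, for Fap. Amplicons differ between genes, so levels are compared between samples and not between genes. Kit, whose transcript the W-SASH inversion disturbs, spanned 112.8 to 126.6 CPM in Kit-W/sh and 267.7 to 520.8 CPM in Kit-B6 preneoplastic colon. In tumors the Kit means were 105.6 ± 76.3 CPM for Kit-W/sh and 221.2 ± 149.2 CPM for Kit-B6 (SD). The library labelled Kit-W/sh tumor 2 had 459.6 CPM of the mast cell carboxypeptidase Cpa3, against 0 to 9.81 CPM in the other Kit-W/sh tumors and 11.32 to 255.8 CPM in Kit-B6 tumors. That level goes against a label of mast cell deficiency. Kit-B6 tumor 4 lay nearest the preneoplastic libraries on the first principal component, at 8 against -20.26 to -0.265 for the other Kit-B6 tumors. Stage values, tumor genotype values and the most similar genes are given with and without these libraries. Epithelial markers (Epcam, Ceacam1 and Car4, 3 of 17 listed) had counts in every group, whereas 0 of 8 smooth muscle markers were on the panel.

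The matrix genes Fn1 and Col3a1 and the secreted Igfbp5 had higher mean levels in tumors than in preneoplastic colon in both genotypes, and Fap had lower ones. Zeb1 had a lower mean in tumors, with the wider gap in Kit-W/sh, whereas the Gpc4 mean was higher in Kit-B6 tumors and near its preneoplastic level in Kit-W/sh tumors.

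**Figure D1:**
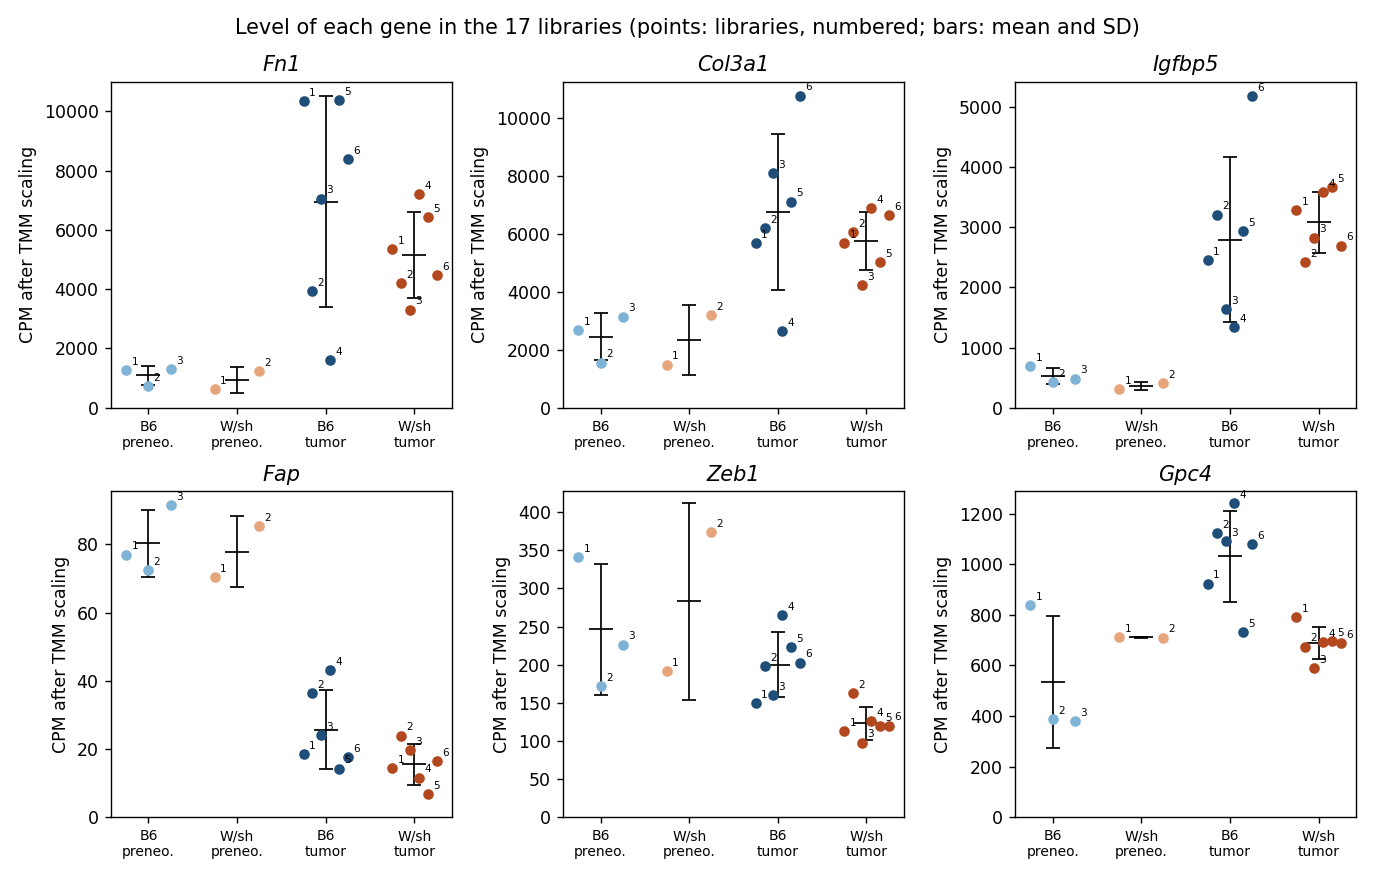
Levels of the 6 genes in each of the 17 libraries (y axis, CPM after TMM scaling, linear and from 0), by group (x axis). Points are numbered libraries, and bars are the group mean and SD. Fn1 in Kit-B6 tumors spans 1614 to 10390 CPM, whereas Gpc4 in Kit-W/sh tumors stays between 589.7 and 790.2 CPM.

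Fn1 stood at 1260, 720.2 and 1296 CPM in the 3 Kit-B6 preneoplastic samples and at 631.2 and 1244 CPM in the 2 Kit-W/sh ones. In Kit-B6 tumors 1 to 6 it was 10340, 3926, 7059, 1614, 10390 and 8385 CPM. In Kit-W/sh tumors 1 to 6 it was 5339, 4207, 3313, 7197, 6428 and 4474 CPM. Every tumor lay above every preneoplastic sample, and the lowest tumor was Kit-B6 tumor 4. The group means were 6952 ± 3550 CPM in Kit-B6 tumors (SD, n = 6), 5160 ± 1455 in Kit-W/sh tumors (n = 6), 1092 ± 322 in Kit-B6 preneoplastic colon (n = 3) and 938 ± 433 in Kit-W/sh preneoplastic colon (n = 2). Neighbours in this order overlapped within a stage and not between stages. The tumor over preneoplastic log2 fold change was 2.67 ± 0.51 (SE) in Kit-B6 and 2.46 ± 0.60 in Kit-W/sh.

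Col3a1 read 2669, 1555 and 3142 CPM in Kit-B6 preneoplastic colon and 1490 and 3182 CPM in Kit-W/sh preneoplastic colon. Its levels in Kit-B6 tumors 1 to 6 were 5682, 6197, 8078, 2651, 7107 and 10760 CPM. In the Kit-W/sh tumors they were 5675, 6051, 4221, 6895, 5017 and 6640 CPM. All tumors but Kit-B6 tumor 4 exceeded every preneoplastic sample, and that tumor fell within the preneoplastic range. Means were 6746 ± 2691 CPM in Kit-B6 tumors, 5750 ± 1007 in Kit-W/sh tumors, 2455 ± 815 in Kit-B6 preneoplastic colon and 2336 ± 1196 in Kit-W/sh preneoplastic colon, with the same n as for Fn1. The 2 tumor groups overlapped, as did the 2 preneoplastic groups. The stage log2 fold change was 1.46 ± 0.37 in Kit-B6 and 1.30 ± 0.43 in Kit-W/sh.

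Igfbp5 showed the widest gap between the stages in Kit-W/sh. The Kit-B6 preneoplastic samples had 685.7, 426.3 and 483.6 CPM, and those of Kit-W/sh had 311.1 and 407.3 CPM. Kit-B6 tumors 1 to 6 had 2449, 3210, 1643, 1342, 2941 and 5177 CPM, and the Kit-W/sh tumors had 3291, 2422, 2827, 3587, 3670 and 2694 CPM. Every tumor lay above every preneoplastic sample in both genotypes. Means ran in the order Kit-W/sh tumors (3082 ± 509 CPM), Kit-B6 tumors (2794 ± 1373), Kit-B6 preneoplastic colon (532 ± 136) and Kit-W/sh preneoplastic colon (359 ± 68.1). The 2 tumor groups overlapped, and the 2 preneoplastic groups did not. The stage log2 fold change was 2.39 ± 0.36 in Kit-B6 and 3.10 ± 0.45 in Kit-W/sh.

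Fap moved the other way from the matrix genes. It read 77.0, 72.6 and 91.5 CPM in Kit-B6 preneoplastic colon and 70.5 and 85.3 CPM in Kit-W/sh preneoplastic colon. The Kit-B6 tumors had 18.6, 36.3, 24.2, 43.2, 14.25 and 17.7 CPM, and the Kit-W/sh tumors had 14.3, 23.9, 19.6, 11.6, 6.85 and 16.5 CPM. Every tumor lay below every preneoplastic sample, and the highest tumor was Kit-B6 tumor 4. Means were 80.3 ± 9.87 CPM in Kit-B6 and 77.9 ± 10.5 CPM in Kit-W/sh preneoplastic colon, which overlapped. They were 25.7 ± 11.6 CPM in Kit-B6 and 15.4 ± 5.99 CPM in Kit-W/sh tumors, which overlapped as well. The stage log2 fold change was -1.65 ± 0.39 in Kit-B6 and -2.33 ± 0.43 in Kit-W/sh. Tumor libraries held 8 to 42 counts of Fap each, so counting error alone is larger here than for the other genes.

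Gpc4 was higher in tumors than in preneoplastic colon in Kit-B6 and near level between the stages in Kit-W/sh. The Kit-B6 preneoplastic samples read 837.9, 388.2 and 379.7 CPM, and the Kit-W/sh ones read 712.6 and 710.1 CPM. Kit-B6 tumors 1 to 6 had 923.9, 1123, 1092, 1242, 731.1 and 1080.0 CPM, and the Kit-W/sh tumors had 790.2, 674.7, 589.7, 693.6, 695.3 and 687.2 CPM. Kit-B6 preneoplastic sample 1 stood well above the other two of its group, and Kit-B6 tumor 5 was the only Kit-B6 tumor inside the Kit-W/sh tumor range. Means were 1032 ± 179 CPM in Kit-B6 tumors, 711.3 ± 1.75 in Kit-W/sh preneoplastic colon, 688 ± 63.8 in Kit-W/sh tumors and 535 ± 262 in Kit-B6 preneoplastic colon, and all neighbours in this order overlapped but the first pair. The stage log2 fold change was 0.95 ± 0.23 in Kit-B6, or 1.45 without Kit-B6 preneoplastic sample 1, and -0.05 ± 0.26 in Kit-W/sh.

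Zeb1 had 341.0, 172.3 and 226.3 CPM in Kit-B6 preneoplastic colon and 191.7 and 374.3 CPM in Kit-W/sh preneoplastic colon. Kit-B6 tumors 1 to 6 read 149.4, 198.3, 159.7, 265.5, 223.0 and 202.8 CPM, and the Kit-W/sh tumors read 112.5, 162.7, 97.7, 125.8, 119.0 and 120.0 CPM. The Kit-W/sh tumors all lay below the preneoplastic samples of their genotype, whereas 4 of the 6 Kit-B6 tumors fell within the range of theirs. Means were 283 ± 129 CPM in Kit-W/sh and 246.5 ± 86.2 CPM in Kit-B6 preneoplastic colon, 199.8 ± 42.5 CPM in Kit-B6 tumors and 123.0 ± 21.7 CPM in Kit-W/sh tumors. Each neighbouring pair in this order overlapped. The stage log2 fold change was -0.30 ± 0.26 in Kit-B6 and -1.20 ± 0.29 in Kit-W/sh.

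The stage comparisons were read against all genes, in edgeR's quasi-likelihood test with Benjamini-Hochberg adjustment and a threshold of 0.05. In Kit-B6, 5 of the 6 genes passed (Fn1, Col3a1, Igfbp5 and Gpc4 higher, Fap lower), where 41.1% of the 869 genes tested passed, 22.2% higher and 18.9% lower. In Kit-W/sh, 5 of 6 passed (Fn1, Col3a1 and Igfbp5 higher, Fap and Zeb1 lower), where 39.7% of genes passed, 20.9% higher and 18.8% lower. The stage groups did not overlap for 3 of the 6 genes in Kit-B6 (29.3% of all genes) and for 5 of the 6 in Kit-W/sh (58.2% of all genes). The median log2 fold change of the 6 genes was 1.20 in Kit-B6 and 0.63 in Kit-W/sh, beside -0.0027 and 0.08 over all genes. Nothing is read from these shares, because the genes were chosen with stage values known. The split of calls depended on scaling. With unscaled library totals the median of all genes shifted to 0.24 in Kit-B6 and 0.34 in Kit-W/sh, and the share of calls that were higher went from 54.1% to 73% and from 52.8% to 70.1%. Scaling on the reference genes Tfrc and Rpl13a gave shifts of 0.23 and 0.56 and shares of 74.7% and 82.6%. The counts of these genes were summed, so Rpl13a, which had far more counts, set most of this scale. Under TMM scaling Rpl13a stood at -0.20 ± 0.20 between stages in Kit-B6 and -0.51 ± 0.22 in Kit-W/sh. Tfrc stood at 0.09 ± 0.36 and 0.27 ± 0.41, and neither gene passed. Under reference gene scaling Zeb1 no longer passed in Kit-W/sh, at -0.75, and Gpc4 turned to 0.44 there without passing.

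Without Kit-B6 tumor 4 the Kit-B6 stage values were 2.88 ± 0.38 for Fn1, 1.62 ± 0.30 for Col3a1, 2.54 ± 0.32 for Igfbp5, -1.86 ± 0.38 for Fap, 0.89 ± 0.23 for Gpc4 and -0.40 ± 0.26 for Zeb1. Without the library labelled Kit-W/sh tumor 2 the Kit-W/sh stage values were 2.51 ± 0.62 for Fn1, 1.29 ± 0.45 for Col3a1, 3.16 ± 0.46 for Igfbp5, -2.49 ± 0.44 for Fap, -0.04 ± 0.27 for Gpc4 and -1.30 ± 0.29 for Zeb1. The same genes passed in both cases. The Kit-W/sh stage comparison rests more on its 2 preneoplastic samples. Without the first of them Fn1 (2.06) and Col3a1 (0.86) no longer passed, and without the second Zeb1 (-0.64) did not.

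**Figure D2:**
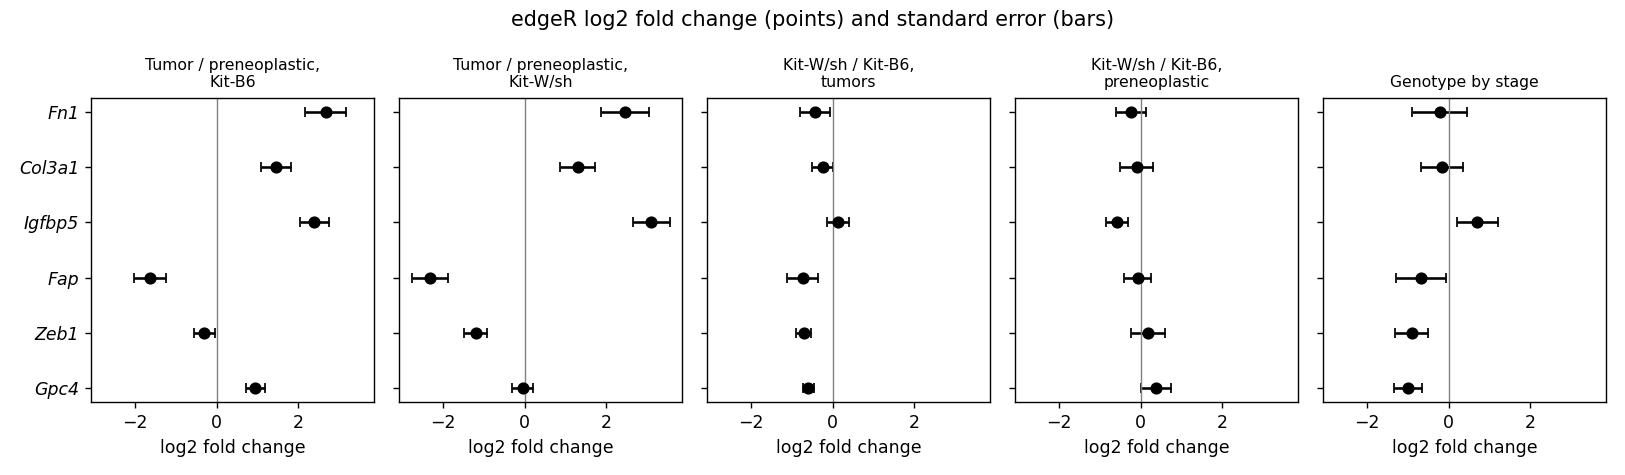
Log2 fold change of each gene in the 5 comparisons (x axis; 1 panel per comparison), from edgeR. Points are estimates, bars are standard errors and the vertical line marks no difference. Fn1, Col3a1 and Igfbp5 lie to the right of the line and Fap to the left in both stage panels, with Igfbp5 farthest out at 3.10 in Kit-W/sh.

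Several cell type marker sums differed between the stages as well. Amplicons differ between genes, so each sum mostly follows its genes with the most counts. The epithelial sum follows Car4 and Ceacam1, whereas Epcam means were near level between the stages. Nt5e, near level too, weighs most in the fibroblast and pericyte sum. Cd163 fell (edgeR log2 fold change -2.45 in Kit-B6 and -3.22 in Kit-W/sh), against 8 of 9 macrophage genes tested on the higher side. The summed epithelial markers ranged from 88730 to 182000 CPM in Kit-B6 and from 140600 to 140700 CPM in Kit-W/sh preneoplastic colon, against 39850 to 82420 and 42010 to 50240 CPM in tumors. The monocyte and macrophage sum (10 of 16 markers measured, Marco at 0 in every library) spanned 1291 to 1406 and 1335 to 1598 CPM in preneoplastic colon of Kit-B6 and Kit-W/sh, and 1545 to 4115 and 2794 to 4410 CPM in their tumors. The fibroblast and pericyte sum (7 of 23 measured, Cxcl14 at 0 in Kit-W/sh preneoplastic colon) was 2324 to 3770 and 2065 to 2781 CPM in preneoplastic colon of the 2 genotypes and 2729 to 6465 and 2612 to 3630 CPM in tumors, with overlap in both genotypes. The endothelial sum (5 of 18 measured, Sele at 0 in Kit-W/sh preneoplastic colon) was 442.6 to 507.9 and 336.4 to 473.4 CPM in preneoplastic colon and 417.5 to 1099 and 635.3 to 888.8 CPM in tumors. The mast cell sum (9 of 11 measured) was 595 to 832.3 and 388.8 to 437.6 CPM in preneoplastic colon and 459.9 to 1536 and 266.3 to 1524 CPM in tumors. Cpa3 and Ms4a2 were at 0 in Kit-W/sh preneoplastic colon, and Tpsab1 in preneoplastic colon of both genotypes. The B cell sum (8 of 11 measured) was 152.2 to 2915 and 151.4 to 327.3 CPM in preneoplastic colon and 32.93 to 800.1 and 18.11 to 121.8 CPM in tumors. By edgeR 4 of the 7 B cell genes tested passed as lower in Kit-B6 tumors (median -2.99) and 0 of 7 in Kit-W/sh (median -2.55). The part of these shifts in the stage values of the 6 genes was not tested.

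Genes with related roles were tested in the same fits. Of 24 other matrix, proteoglycan, protease, integrin, TGF-beta and fibroblast genes on the panel, 23 were tested between stages. In Kit-B6, 13 of the 23 passed, 11 higher and 2 lower, with a median log2 fold change of 0.79. In Kit-W/sh, 14 passed, 11 higher and 3 lower, with a median of 1.20. With unscaled totals the calls were 16 higher and 1 lower in Kit-B6 and 14 and 1 in Kit-W/sh, and with reference gene scaling 13 and 1, and 14 and 0. The shares that passed under the main scaling, 56.5% and 60.9%, stand beside 41.1% and 39.7% of all genes. The gene lists were chosen with earlier results of these data known, so nothing is read from these shares. The adjusted p-values of single listed genes below are likewise a description. Only 2 of 27 listed fibrillar and basement membrane genes were on the panel, and these were Fn1 and Col3a1 themselves. No other gene of that list could therefore be set beside them. The collagen Col8a2 was on the panel outside the list, and its stage values are not given here.

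Some matrix receptors and proteases were among the genes that rose, and others missed the threshold. Cd44, the hyaluronan receptor, rose by 1.89 ± 0.41 (adjusted p = 0.00208) in Kit-B6 and 2.50 ± 0.51 (adjusted p = 0.00163) in Kit-W/sh, as log2 fold changes in edgeR's test. Itgav, the alpha subunit of fibronectin- and vitronectin-binding integrins, rose by 1.62 ± 0.28 and 1.66 ± 0.33 (adjusted p = 0.000321 and 0.00126). Itgb1, the beta subunit shared by most matrix-binding integrins, rose by 1.20 ± 0.20 and 1.11 ± 0.24 (adjusted p = 0.00030 and 0.00227). The macrophage elastase Mmp12 rose by 6.71 ± 0.95 and 6.22 ± 1.09 (adjusted p = 8.72e-05 and 0.000603), and the collagen-cutting cathepsin Ctsk by 1.88 ± 0.42 and 1.96 ± 0.50 (adjusted p = 0.00244 and 0.00618). Dpp4, the closest relative of Fap, stood at -0.20 ± 0.46 in Kit-B6, where it missed the threshold (adjusted p = 0.745), and fell in Kit-W/sh by 1.37 ± 0.50 (adjusted p = 0.0407). Itgb3 missed it in both genotypes, at 0.91 ± 0.42 and 1.20 ± 0.49 (adjusted p = 0.086 and 0.064). So did Hpse, at 0.49 ± 0.21 and 0.45 ± 0.25 (adjusted p = 0.072 and 0.158). Ctsb missed it at 0.26 ± 0.14 and 0.26 ± 0.16 (adjusted p = 0.125 and 0.195). Itga4 was on the lower side and missed it, at -0.57 ± 0.42 and -0.56 ± 0.47 (adjusted p = 0.281 and 0.355).

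TGF-beta family and fibroblast genes moved in both directions. Inhba, which encodes a subunit of activin A, rose by 4.29 ± 0.69 in Kit-B6 and 5.96 ± 0.93 in Kit-W/sh (edgeR adjusted p = 0.000197 and 0.000287). Thbs1, a matrix protein that activates latent TGF-beta, rose by 1.64 ± 0.53 and 2.63 ± 0.67 (adjusted p = 0.0214 and 0.00634). Tgfb1 passed in Kit-W/sh (1.51 ± 0.41, adjusted p = 0.00922) and missed in Kit-B6 (0.79 ± 0.33, adjusted p = 0.0648), whereas the relative Tgfb3 fell by 1.00 ± 0.34 and 1.18 ± 0.39 (adjusted p = 0.0272 and 0.0248). Smad2 passed as higher in Kit-B6 (0.46 ± 0.14, adjusted p = 0.0146) and missed in Kit-W/sh (-0.13 ± 0.15, adjusted p = 0.509). Smad3 (0.49 ± 0.20 and 0.17 ± 0.23) and Tgfb2 (-0.79 ± 0.52 and -0.28 ± 0.61) missed in both. Among fibroblast and pericyte genes, Wnt5a rose by 2.83 ± 0.52 and 2.57 ± 0.61 (adjusted p = 0.000648 and 0.00453) and the pericyte receptor Pdgfrb by 1.24 ± 0.41 and 1.38 ± 0.49 (adjusted p = 0.0242 and 0.0340). The chemokine Cxcl12 fell by 1.21 ± 0.31 and 1.18 ± 0.35 (adjusted p = 0.00652 and 0.0158). Il6 rose by 4.00 ± 1.37 and 5.21 ± 1.55 (adjusted p = 0.0276 and 0.0157). Its preneoplastic means were 3.37 and 7.75 CPM, near the level of 3 counts. Nt5e (0.15 ± 0.275 and -0.09 ± 0.31) and Ccl11 (-0.24 ± 0.66 and 1.24 ± 0.83) missed the threshold in both genotypes.

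Epithelial genes differed between the stages too. Car4, a carbonic anhydrase of differentiated colon surface cells, fell by 3.71 ± 1.15 in Kit-B6 and 5.30 ± 1.26 in Kit-W/sh (edgeR adjusted p = 0.0176 and 0.0045), and the adhesion molecule Ceacam1 fell by 1.48 ± 0.24 and 1.52 ± 0.27 (adjusted p = 0.000197 and 0.000603). Epcam, present on all colon epithelium, stood at 0.02 ± 0.16 and -0.08 ± 0.18 and missed the threshold in both.

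**Figure D3:**
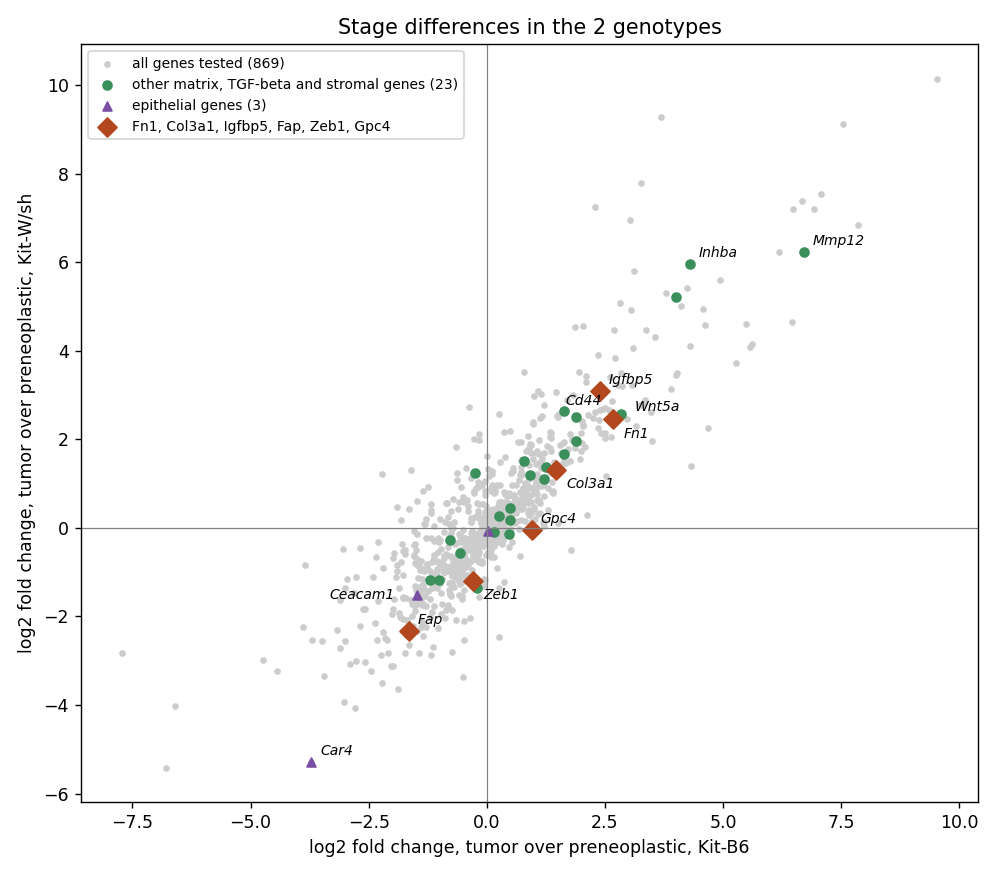
Log2 fold change between tumor and preneoplastic colon for the 869 genes tested, in Kit-B6 (x axis) and in Kit-W/sh (y axis). Each point is a gene; diamonds are the 6 genes, circles the 23 related genes and triangles 3 epithelial genes. Gpc4 lies at 0.95 and -0.05, near the horizontal zero line, and Zeb1 at -0.30 and -1.20.

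The genotype comparison in preneoplastic colon was not among the known choices, so its tests are given for the 6 genes. By edgeR 0 of 6 passed after Benjamini-Hochberg adjustment over 777 genes, of which 0.129% passed. At an unadjusted p under 0.05 stood 0 of the 6 and 10.7% of all genes, and DESeq2 passed 0 of the 6. Kit-W/sh minus Kit-B6 log2 fold changes were -0.24 for Fn1 (95% interval -1.14 to 0.66, adjusted p = 0.845), -0.09 for Col3a1 (-1.09 to 0.90, adjusted p = 0.947) and -0.07 for Fap (-0.87 to 0.73, adjusted p = 0.957). They were 0.18 for Zeb1 (-0.81 to 1.16, adjusted p = 0.904) and 0.39 for Gpc4 (-0.51 to 1.29, adjusted p = 0.727). Igfbp5 was the only one of the 6 whose groups did not overlap, as for 29.7% of all genes, and its value was -0.59 (-1.23 to 0.06, adjusted p = 0.467). The Gpc4 value was 0.87 without Kit-B6 preneoplastic sample 1 (edgeR adjusted p = 0.0552) and was 0.16 without sample 3, and over the fits with 1 library left out its adjusted p ran from 0.0552 to 0.997. The intervals are wide, and 3 samples against 2 could not show small differences. Of the 21 related genes tested, 0 passed by edgeR or DESeq2 and 1 had an unadjusted p under 0.05.

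Mean tumor levels of Gpc4 and Zeb1 were lower in Kit-W/sh samples. The Kit-W/sh minus Kit-B6 log2 fold change was -0.60 ± 0.13 for Gpc4 and -0.71 ± 0.19 for Zeb1, and these ranked 1 and 10 by p among the 799 genes tested. Both genes were chosen with these p-values known, so the ranks are a description. For both genes 5 of the 6 Kit-W/sh tumors lay below the lowest Kit-B6 tumor, and all 6 lay below the Kit-B6 median. For Gpc4 the overlap lay between Kit-B6 tumor 5 and Kit-W/sh tumor 1. For Zeb1 it lay between Kit-B6 tumors 1 and 3 and the library labelled Kit-W/sh tumor 2. Fap stood at -0.73 ± 0.38, Fn1 at -0.44 ± 0.36, Col3a1 at -0.24 ± 0.26 and Igfbp5 at 0.13 ± 0.27. By edgeR 0 of the 6 genes and 0% of all genes passed, and 2 of the 6 and 13.6% of all genes had an unadjusted p under 0.05. By DESeq2 24 of the 799 genes passed. Gpc4 and Zeb1 were among them, which is no separate test because they were chosen from this contrast. The 2 groups overlapped for all 6 genes, and 0.626% of all genes had groups that did not overlap. The median of the 6 genes was -0.52, beside -0.01 over all genes.

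The tumor genotype values of Col3a1, Fn1 and Igfbp5 moved by over 1.5 times when single libraries were left out. Col3a1 was -0.06 without Kit-B6 tumor 6, and Fn1 was -0.29 without Kit-B6 tumor 5. Igfbp5 was 0.39 without Kit-B6 tumor 6 and 0.0062 without Kit-B6 tumor 3. Without the library labelled Kit-W/sh tumor 2 the values were -0.60 ± 0.15 for Gpc4, -0.82 ± 0.19 for Zeb1, -0.91 ± 0.39 for Fap, -0.40 ± 0.40 for Fn1, -0.27 ± 0.28 for Col3a1 and 0.18 ± 0.29 for Igfbp5. Without Kit-B6 tumor 4 they were -0.57 ± 0.14 for Gpc4, -0.64 ± 0.18 for Zeb1, -0.55 ± 0.38 for Fap, -0.67 ± 0.25 for Fn1, -0.44 ± 0.18 for Col3a1 and -0.04 ± 0.24 for Igfbp5. Of the 6, Igfbp5 alone changed sign in these fits. Of the 23 related genes tested between the tumor groups, 0 passed by edgeR or DESeq2, 3 had an unadjusted p under 0.05 and the median was -0.06. The fibroblast, epithelial and endothelial marker sums of the 2 tumor groups overlapped.

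The genotype-by-stage contrast, which is the tumor genotype difference minus the preneoplastic one, was -0.99 ± 0.34 for Gpc4 and -0.90 ± 0.40 for Zeb1. It was 0.71 ± 0.50 for Igfbp5, -0.68 ± 0.62 for Fap, -0.21 ± 0.67 for Fn1 and -0.16 ± 0.52 for Col3a1. By edgeR 0% of 869 genes passed (7.25% at an unadjusted p under 0.05, and 2 of the 6), and DESeq2 passed 1 gene, which was none of the 6. The Gpc4 value leaned on Kit-B6 preneoplastic sample 1. Without that library it was -1.51, with an edgeR adjusted p of 0.0179 against 0.66 with all libraries. In no other fit did the Gpc4 contrast pass. Gpc4 was chosen from its tumor genotype values, so this pass is not read as a test. The Zeb1 value leaned on Kit-W/sh preneoplastic sample 2 and was -0.34 without it, within a range of -1.30 to -0.34 with 1 library left out. Scaling on the reference genes turned Fn1 and Col3a1 to the other sign, neither passing.

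Spread between tumors differed by gene and genotype. The coefficient of variation, the SD as a percentage of the mean, was 51.1% for Fn1, 39.9% for Col3a1 and 49.1% for Igfbp5 in Kit-B6 tumors, and 28.2%, 17.5% and 16.5% in Kit-W/sh tumors. For Fap it was 45% and 38.8%, for Zeb1 21.3% and 17.7%, and for Gpc4 17.4% and 9.27%. Kit-B6 tumor 4 was the lowest of its group for Fn1, Col3a1 and Igfbp5 and the highest for Fap, Zeb1 and Gpc4. Its epithelial marker sum, 82420 CPM, was the highest of the group, and its macrophage sum, 1545 CPM, the lowest. Without it the Kit-B6 values became 33.5% for Fn1, 26.5% for Col3a1 and 42.6% for Igfbp5, with means of 8020 ± 2684, 7565 ± 2006 and 3084 ± 1313 CPM (SD, n = 5). They became 39% for Fap, 16.6% for Zeb1 and 16.6% for Gpc4, so that the Fap value was close to that of Kit-W/sh tumors and the Zeb1 value was below it. The difference in spread between the genotypes was not tested.

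Within the tumors of a genotype, Fap ran opposite to Fn1. Over the 6 Kit-B6 tumors the Pearson correlation of log2(CPM + 1) was -0.94 (exact permutation p = 0.00417, adjusted over 30 relations 0.125) with Spearman rho -0.94, and it was -0.82 without the 2 libraries farthest from the median of Fn1. Over the 6 Kit-W/sh tumors it was -0.79 (exact p = 0.0611, adjusted 0.339) with rho -0.89, and -0.96 without the farthest 2. Fap also ran opposite to Igfbp5 in Kit-W/sh tumors (r -0.90, rho -0.94, exact p = 0.00972, adjusted 0.146), with -0.88 without the 2 libraries farthest from the median of Fap. None of the 30 relations, 15 pairs in each genotype, passed at an adjusted 0.05. The smallest p that 6 samples allow is 0.00139 for Pearson r.

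Other pairs depended on genotype or on single tumors. Fap and Gpc4 ran in parallel in Kit-B6 tumors (r 0.82, rho 0.94, exact p = 0.0347, adjusted 0.339), and the value in Kit-W/sh tumors was -0.33. Fn1 and Gpc4 ran in exactly opposite rank order over the Kit-B6 tumors (rho -1.0, exact permutation p = 0.00278, adjusted 0.0833), with r -0.74. No smaller p is possible for a rank order of 6 samples, so this relation alone could not have passed after adjustment. In Kit-W/sh tumors Fn1 and Gpc4 had r 0.61 and rho 0.77, and this difference between the genotypes was not tested. Fn1 and Col3a1 had 0.80 in Kit-B6 tumors, which turned to -0.60 without the 2 farthest libraries, so that relation rests on them. Signs matched between the genotypes for 7 of the 15 pairs. All levels share the scaling factor of their library.

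**Figure D4:**
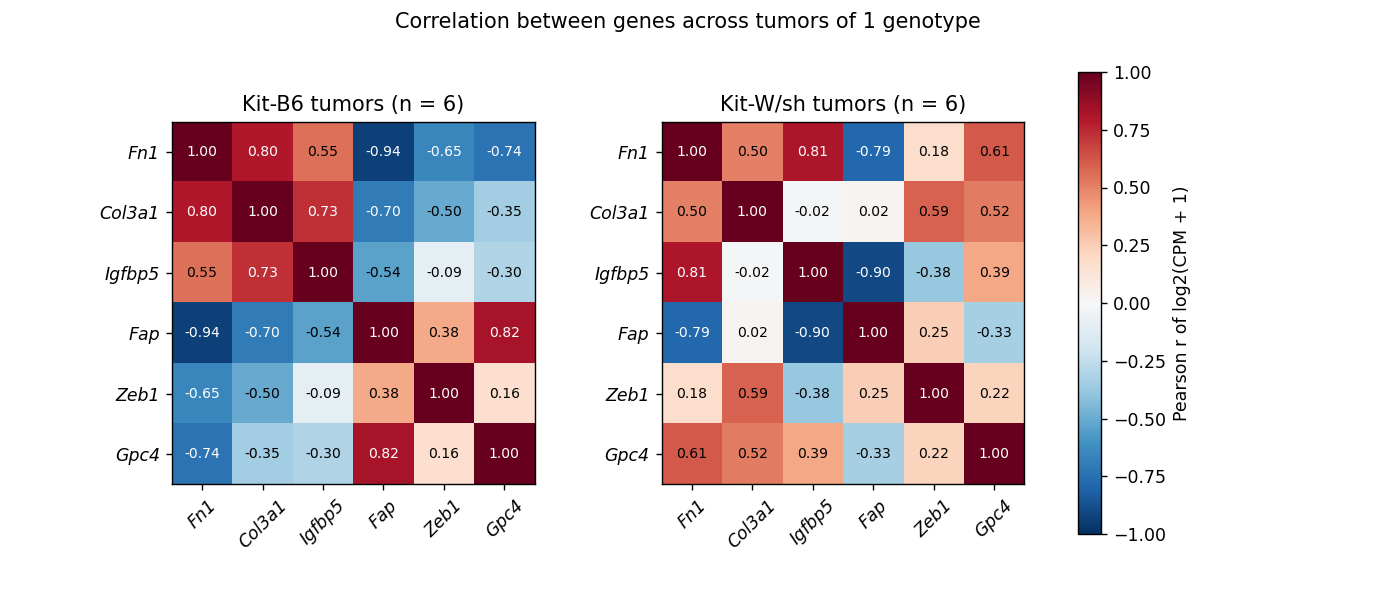
Pearson r of log2(CPM + 1) for each pair of the 6 genes across the 6 Kit-B6 tumors (left) and the 6 Kit-W/sh tumors (right), from -1 (blue) to 1 (red). The Fn1 and Fap cells are blue in both, at -0.94 and -0.79, and the Fn1 and Gpc4 cells differ in color.

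The genes with the most similar pattern were listed for each of the 6, by Pearson r of log2(CPM + 1) over the 12 tumors after centring each genotype. For Fn1 they were Cd44 (0.932), Cd276 (0.917) and Fam3c (0.917). For Col3a1 they were Gdpd5 (0.897), Mrc2, a collagen uptake receptor (0.879), and Kdr, the endothelial VEGF receptor (0.848). For Igfbp5 they were Chst2 (0.923), Wnt5a (0.855) and again Mrc2 (0.85). Fap was nearest to Ceacam18 (0.951), Fut4 (0.941) and the epithelial gene Car4 (0.938), and not to the matrix genes. Zeb1 was nearest to Kit (0.854), Cd82 (0.791) and Abhd2 (0.765), and Gpc4 to Ikbkb (0.819), Psmd11 (0.818) and Sec24c (0.813). Several of these pairings leaned on Kit-B6 tumor 4. Without it the Col3a1 values became 0.74, 0.642 and 0.732, which ranked 9, 27 and 11 among all genes, and Cd276 fell to rank 10 for Fn1 (0.825). Zeb1 kept Kit at 0.792 (rank 2), whereas Cd82 fell to 0.689 (rank 15) and Abhd2 to 0.655 (rank 24). Without the library labelled Kit-W/sh tumor 2, Zeb1 had 0.791 with Kit (rank 2), 0.801 with Cd82 (rank 1) and 0.704 with Abhd2 (rank 7). In that case the ranks of the other 5 genes' neighbours were 6 or better. These 12 points share library depth and scaling, and the values are a description.

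**Figure D5:**
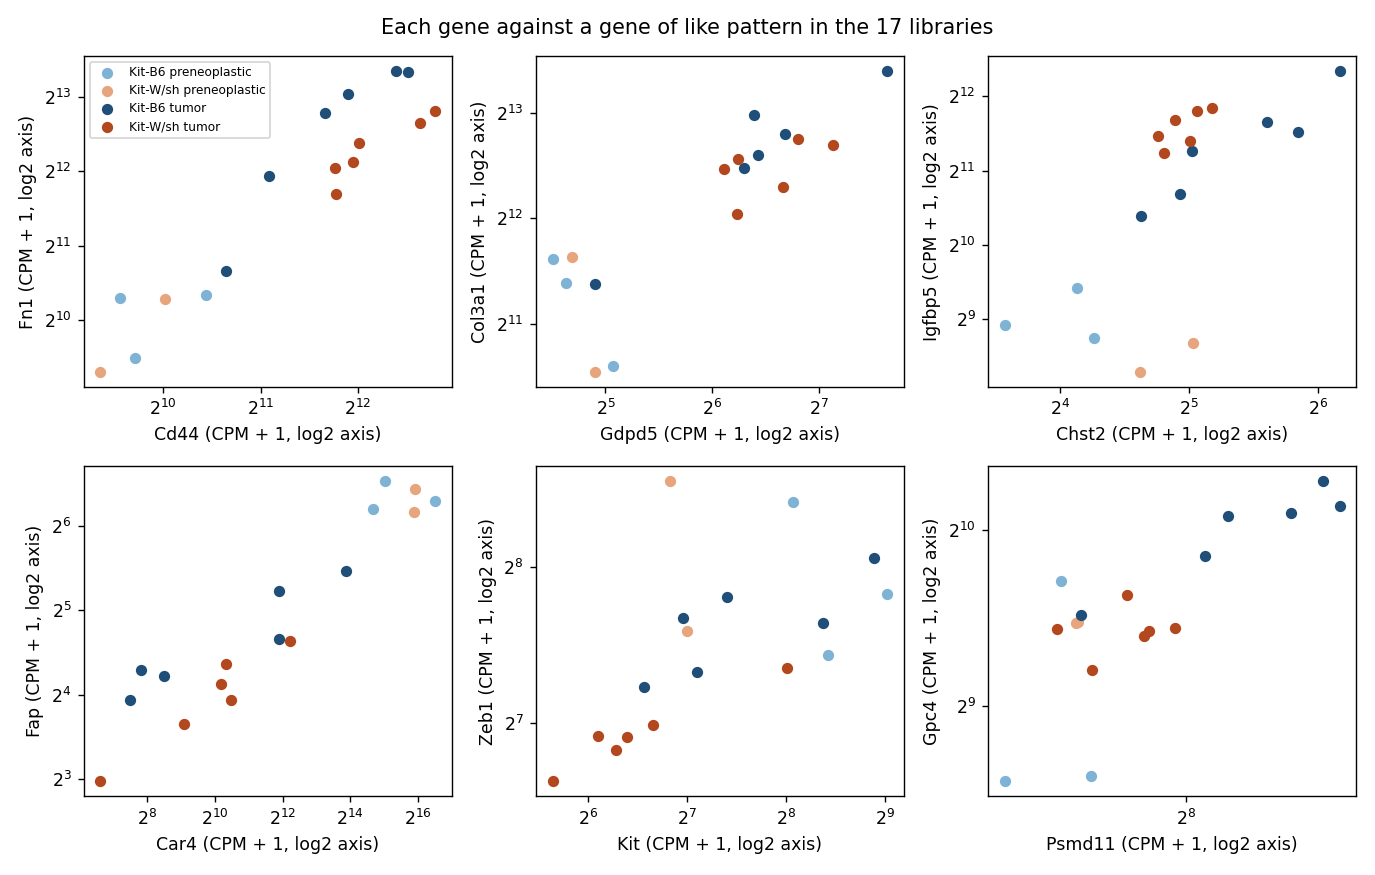
Each of the 6 genes (y axis) against a gene from its list of most similar patterns (x axis) in the 17 libraries, both as CPM + 1 on log2 axes, colored by group. Fap and Car4 fall from the preneoplastic libraries at upper right to the tumors, where Kit-B6 tumor 4 is the highest of the tumors with 43.2 CPM of Fap and 14830 CPM of Car4.

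Levels in single libraries show the pairings of Fap with Car4 and of Zeb1 with Kit. Car4 stood at 226.1, 3833, 3806, 14830, 180.3 and 359.7 CPM in Kit-B6 tumors 1 to 6, so tumors 2, 3 and 4, which held the most Fap, also held the most Car4. In Kit-W/sh tumors Car4 was 1416, 4788, 1301, 549.3, 98.5 and 1154 CPM, highest in tumor 2 by label and lowest in tumor 5, as for Fap. Kit in Kit-B6 tumors was 93.7, 330.9, 136.6, 473.4, 168.9 and 123.8 CPM, and in Kit-W/sh tumors 76.99, 257.5, 48.9, 99.5, 83.1 and 67.8 CPM. The highest Zeb1 and the highest Kit came from the same library of each genotype, Kit-B6 tumor 4 and the library labelled Kit-W/sh tumor 2. The lowest fell together as well, in Kit-B6 tumor 1 and Kit-W/sh tumor 3. In Kit-B6 tumors Cpa3 did not follow Kit, with its lowest level in tumor 4 (11.32 CPM) and its highest in tumor 5 (255.8 CPM). In Kit-W/sh tumors Cpa3, like Kit, was highest in tumor 2 by label (459.6 CPM) and lowest in tumor 3 (0 CPM). The part of epithelial or mast cell content in these pairs was not tested.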

How the data were processed

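Per the labels' protocols, panel amplicons (QIAseq, mouse immuno-oncology) were sequenced on a MiSeq. The authors deposited raw counts per panel gene, 1 table per sample. Whether reads or molecular tags were counted is not given in the sources used here, nor are the aligner and counter. Build mm9 and DESeq2 are named in the submitters' processing notes. The 993 entries held 988 genes and 5 genomic DNA control amplicons, which had 0 counts throughout and were left out.

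Counts were tested in R 4.3.3 with edgeR 4.0.16 (TMM, filterByExpr at 10 counts and a total of 15, two-sided quasi-likelihood F test with robust fitting, Benjamini-Hochberg over all genes at 0.05). All 6 genes passed the filter in every comparison. Genotype comparisons used the libraries of their own stage. Stage and genotype-by-stage contrasts came from 1 fit of 17 libraries in 4 groups. DESeq2 1.42.0, other scalings, no filter, other fits, a replicate block and leaving out each library were the alternatives. The tests were tested on simulated counts. The labels name no separate mice, so p-values measure only the spread between these samples, and floors in counts cover counting error only. Replicate libraries differed by more than counting noise (lowest chi-square per degree of freedom 13.03).

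The 6 genes and the gene lists were chosen with earlier results of these data known. Besides the 6, the text names up to 3 genes with the smallest p per list and comparison, with their values in the other genotype, the 3 most similar genes for each of the 6, and Kit. Tgfb3, Smad3, Itga4, Cpa3, Cd163, Col8a2 and the markers at 0 were named after their values were seen.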

Additional observations from a re-analysis of the deposited data

How the results depend on the processing

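Of the log2 fold changes of the 6 genes, 289 with 1 library left out kept direction and side of the threshold. Another 13 changed sign, and the rest crossed the threshold. Under other settings 199 kept both, 7 changed sign and the rest crossed the threshold. The counts of genes past the threshold that moved by over 1.5 times under another setting were 24 of 799 in tumors by DESeq2 (2 of the 6 genes), against 0 by edgeR, and 1 of 869 in the genotype-by-stage contrast by DESeq2. Between genotypes in preneoplastic colon the count of 1 became 20 by DESeq2, 26 with reference gene scaling and 0 with unscaled totals or the fit of all 17 libraries. Stage counts ran from 264 to 403 in Kit-B6, against 357, and from 250 to 413 in Kit-W/sh, against 345. Gpc4 in the Kit-W/sh stage comparison turned to 0.20 with unscaled totals and 0.44 with reference gene scaling. In the genotype-by-stage contrast, reference gene scaling turned Fn1 to 0.065 and Col3a1 to 0.083. The causes were not tested.

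Whether replicate numbers pair the samples could not be settled. Same-number correlations, of profiles centred on their group mean, ran from -0.195 to 0.39 in tumors and from -0.137 to -0.0992 in preneoplastic colon. They ran from -0.0113 to 0.395 between stages in Kit-B6 and from -0.112 to 0.0586 in Kit-W/sh. Centring makes the profiles of a group of 2 exact opposites and ties those of a group of 3, so these values cannot show or exclude pairing there. The best match had the same number for 2 of 6 tumor pairs, 1 of 3 Kit-B6 and 1 of 2 Kit-W/sh stage pairs, and 0 of 2 preneoplastic pairs. With a replicate block, 0 genes passed between genotypes in preneoplastic colon, where Col3a1 turned to 0.0735 and Fap to 0.031. In the Kit-W/sh stage comparison 250 genes passed with the block, against 345, with Gpc4 at 0.051 and Col3a1 (1.24) no longer past the threshold. The block changed no other call among the 6 genes.

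With 1 library left out, genes past the threshold ranged from 0 to 16 between genotypes in preneoplastic colon, from 265 to 425 between stages in Kit-B6, from 132 to 367 between stages in Kit-W/sh (3 to 5 of the 6 genes) and from 0 to 2 in the genotype-by-stage contrast (0 to 1 of the 6). The count of 16 arose without Kit-B6 preneoplastic 1, and the low counts of 132 and 159 arose without Kit-W/sh preneoplastic 1 and 2, which leaves 1 sample assumed to vary like the other groups. The values below changed sign, and none of them passed the threshold in any fit with 1 library left out. Between genotypes in tumors Igfbp5 ranged from -0.042 (without Kit-B6 tumor 4) to 0.39. In preneoplastic colon Zeb1 ranged from -0.41 to 0.55, Col3a1 from -0.76 to 0.33, Fap from -0.23 to 0.039 and Fn1 from -0.84 to 0.14. Zeb1 between stages in Kit-B6 ranged from -0.50 to 0.029. In the genotype-by-stage contrast Col3a1 ranged from -0.60 to 0.49 and Fn1 from -0.62 to 0.36. No correlation passed with 1 tumor left out or with a pseudocount of 10. The low counts of Fap limit its precision.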
